A study of Mus musculus with 5 samples.

Results

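The sites described here were the single bases of the PABPC1 deletion list that lay in an intron or outside every annotated gene. A site was placed, by strand, on the basic transcripts of GENCODE mouse release M21, in mm10 coordinates. Any base in an exon on its own strand was left out first. Of the 11907 deletion sites, 1878 remained (15.8%, exact 95% binomial interval 15.1 to 16.4). They comprised 521 intronic sites and 1357 sites outside genes, and the other 10029 sites were exonic. The placement used position and strand only, so the coverage and deletion values below were not part of the choice.

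PABPC1 is the main cytoplasmic poly(A) binding protein. It coats the poly(A) tail of mature mRNA, takes part in translation initiation and tail shortening, and moves between cytoplasm and nucleus. Introns are removed in the nucleus, so most intronic RNA never reaches the cytoplasm. In CLIP-seq, ultraviolet light links a protein to the RNA it touches, and reverse transcriptase can skip the linked base, which leaves a deletion in the sequenced tag. A gap against the reference can also come from the alignment of a tag or from a base missing in the genome of the cells, and the list does not separate these sources.

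The cells were MEL, a mouse erythroleukemia line, in 1 condition. PABPC1 CLIP-seq was made in 3 samples by ultraviolet light at 400 mJ/cm2, given 3 times, and by RNase for 10 min, with an antibody to PABPC1. Polyadenylated RNA was sequenced from 2 further samples. The samples include no control without crosslinking, no control antibody and no comparison of conditions. The authors pooled the CLIP-seq samples into 1 deletion list and 1 peak list, and gave each gene 1 RPKM over both mRNA-seq samples. The values below therefore carry no replicate error, and the design offers no test between conditions. All intervals are exact binomial intervals at the 95% level and cover counting error only. Of the 11 erythroid markers checked, 10 had an RPKM of at least 1, with a median of 69.2. The T cell, B cell and myeloid markers were all below 1, both megakaryocyte markers were above it (103 and 216), and 1 of 6 fibroblast markers was (Pdgfrb, 2.60). In wider lists, 4 of 11 fibroblast genes, Vim among them (541), and 4 of 17 genes of other blood cells reached 1.

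Each site carries k, the tags that cover the base, and m, the tags with a deletion there. The ratio m/k is called the deleted share. The sequences of 8 sites show the kinds of places that the list holds. They were read from GENCODE transcripts, 5′ to 3′ on the strand of the site, with the deleted base in capitals at the middle of 29 bases. The first 4 and the next pair are intronic sites that fall in an exon of a transcript outside the basic set. The next pair also lie at the boundary of a basic exon, and the last pair lie outside genes.
Ncapg2, chr12:116463491-116463519, plus strand: aaaatgtaaagtacAaaataaagtggact
Aven, chr2:112631218-112631246, plus strand: gcatgaagttggtcAaaataaacaccttc
Tfrc, chr16:32620847-32620875, plus strand: tgagctgtctccccAaataaagtgaatgt
Papola, chr12:105838910-105838938, plus strand: cattgaaaacacaaTaaaaaaaaaaacag
Ube2m, chr7:13035825-13035853, minus strand: tatctcttcttggtAagtagggttaggca
Tram1, chr1:13576352-13576380, minus strand: gaaaaccaaaaaagTaagccggatttcta
Ppp2cb, downstream, chr8:33619761-33619789, plus strand: ttggtgtactgaacAaataaaatttccga
Gm26917, downstream, chr17:39846883-39846911, plus strand: taacaatacaggacTctttcgaggccctg
The Ncapg2, Aven, Tfrc, Papola and Ppp2cb stretches hold AATAAA, the hexamer known as the main poly(A) signal of mammalian mRNA, at or just after the deleted base. The Ube2m and Tram1 stretches hold the start of an intron of the basic set, with GTAAG in both, and the deleted base falls inside it. The Gm26917 stretch holds neither.

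Sites in introns and outside genes differed from exonic sites first in how few tags covered them and in how many of those tags carried the deletion. Median coverage was 13 tags at intronic sites (quartiles 4 and 44), 10 tags outside genes (4 and 55) and 147 tags at exonic sites (65 and 327). The highest coverage was 1512 tags in introns and 3983 outside genes. Deletions were less far apart, with a median m of 7 in both classes and 13 at exonic sites. The median deleted share was 83.3% in introns, 90.0% outside genes and 10.8% in exons. Every covering tag was deleted at 227 intronic sites (43.6%, interval 39.3 to 48.0) and at 639 sites outside genes (47.1%, 44.4 to 49.8), against 175 exonic sites (1.74%, 1.498 to 2.02). By tags, the 2 classes weighed less than by sites: introns held 2.41% and sites outside genes 7.29% of all deletions in the list.

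**Figure D1:**
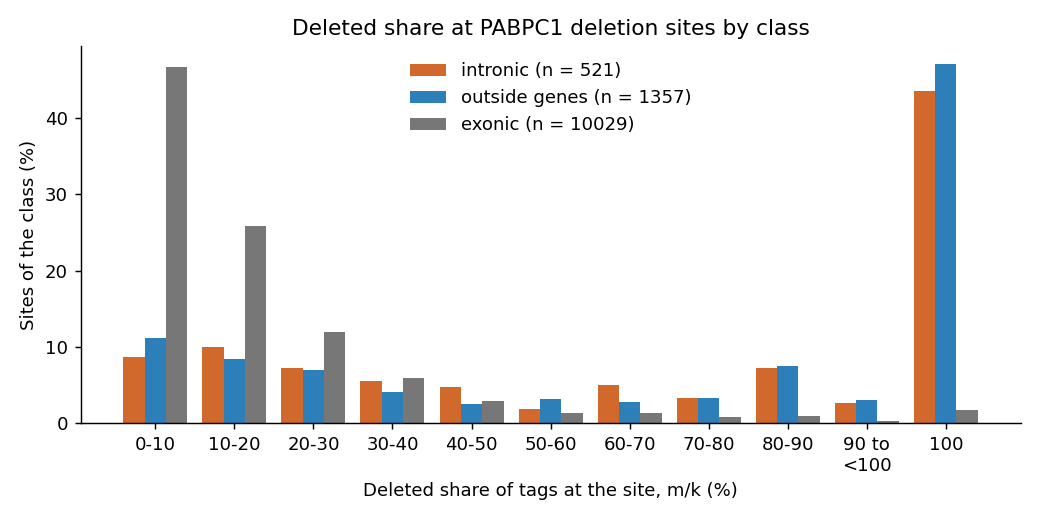
Deleted share m/k (horizontal axis, percent) at the 521 intronic sites, 1357 sites outside genes and 10029 exonic sites, each bar the percent of its class (vertical axis). The tallest bars of introns (43.6%) and of sites outside genes (47.1%) stand at a share of 100%, where exonic sites reach 1.74%.

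The deleted share fell as coverage rose in every class, partly because the smallest m in the list was 3, so that a thinly covered site could enter only with a high share. The sites were therefore set side by side in ranges of coverage. Coverage was not matched further within a range, so the classes may still differ in k there. At k of 3 to 9 the median share was 100% in all 3 classes, yet every tag was deleted at 83.1% of intronic sites (77.7 to 87.6) and 85.6% of sites outside genes (82.7 to 88.2), against 55.6% of exonic sites (49.6 to 61.5). At k of 10 to 49 the median share was 48.9% in introns, 61.5% outside genes and 29.7% in exons. Every tag was deleted there at 14.4% (9.43 to 20.6), 22.9% (18.5 to 27.7) and 1.02% (0.595 to 1.63) of sites. At k of 50 to 199 the medians were 12.9%, 19.7% and 11.3%, and at k of 200 and over they were 8.26%, 5.70% and 5.31%. At k of 10 to 49 the exonic median lay below the lower quartiles of both other classes, whose medians lay within each other's quartiles. At k of 200 and over each median lay within the quartiles of the other classes. Sites of k under 10 made up 46.4% of intronic sites, 48.2% of sites outside genes and 2.83% of exonic sites. With sites of k of at least 50 alone, the median share was 11.1% at 112 intronic sites and 12.5% at 362 sites outside genes.

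**Figure D2:**
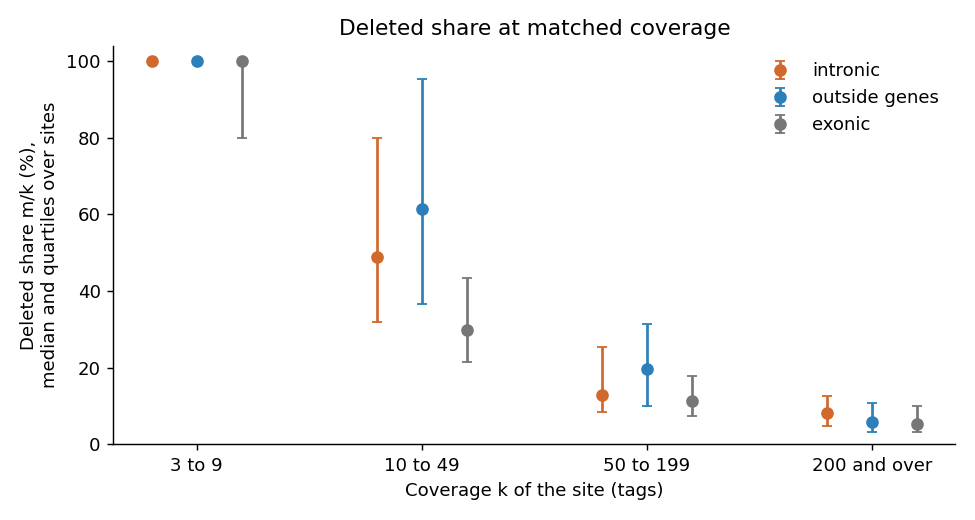
Median deleted share m/k (points) with the quartiles over sites (bars) in 4 ranges of coverage k, for intronic sites, sites outside genes and exonic sites. The medians at k of 10 to 49 are 48.9%, 61.5% and 29.7%, and at k of 200 and over they are 8.26%, 5.70% and 5.31%.

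Most runs were a single base. Joining sites on 1 strand within 10 nt gave 381 intronic runs, of which 276 were a single base, and 949 runs outside genes, of which 666 were a single base. Sites of full deletion and of part deletion seldom shared a run: of the 105 intronic runs with more than 1 site, 30 had every tag deleted at all sites, 64 at none, and 11 were mixed. Of the 283 such runs outside genes, the counts were 99, 172 and 12. Deletion sites on opposite strands seldom lay close together: no site in introns or outside genes had a site on the other strand within 5 nt, and 2 had one within 50 nt. Tags on the other strand that gave no site were not counted.

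The intronic sites fell in 353 genes, 317 of them protein-coding. One site was found in 241 genes, 2 sites in 77 genes and 3 or more in 35 genes, and 121 of the host genes (34.3%) also held an exonic site, beside 31.4% of all genes with an RPKM of at least 1 and 7.23% of all annotated genes. Of the host genes, 63.7% had an RPKM of at least 1, so neither share is over a like set of genes. The genes with the most intronic sites were Smchd1 with 9, Cluap1 and Tmed7 with 7 each, and Ncapg2 and Aven with 5 each. Wdr26 and Mms19 also had 5, with fewer deletions. Smchd1, a chromatin protein of X inactivation, held 363 deletions in 3 runs at k of 28 to 802. Of its 9 sites, 3 (83 deletions) also lay in the extent of another gene, Gm4707. Those 3 fell in an exon of a transcript marked as a translated processed pseudogene, outside the basic set. The 7 sites of Cluap1, a protein of ciliary transport, formed 1 run, with k of 15 at every base.

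The most deleted intronic bases were of different kinds. Ncapg2, a subunit of condensin II, had the most: 284 of 1453 tags at chromosome 12, position 116463505 (19.5%, 17.5 to 21.7), inside a peak of height 1528. That base lies 1894 nt from the nearest basic exon, beyond every basic transcript of the gene but inside its annotated extent, in an exon of a retained-intron transcript. Its RPKM was 146. Of the 506 deletions in the 5 Ncapg2 sites, most came from this base and the next, and the stretch printed above shows AATAAA directly after them. Aven, an inhibitor of apoptosis, had 47 of 288 tags deleted 321 nt from the nearest basic exon (16.3%, 12.2 to 21.1), in an exon of a protein-coding transcript outside the basic set. Papola, the canonical poly(A) polymerase, had 43 of 339 tags deleted 117 nt from an exon (12.7%, 9.33 to 16.7), in an exon of a transcript marked for nonsense-mediated decay. Ppp1r12a, the targeting subunit of myosin phosphatase, had 82 of 330 (24.8%, 20.3 to 29.9), and Ahnak2, a large scaffold protein, 41 of 427 (9.60%, 6.98 to 12.8), both also in exons outside the basic set. These genes had RPKM from 6.45 (Ahnak2) to 146 (Ncapg2).

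A second kind had a high deleted share, in several cases in genes that the mRNA-seq table did not list. Eya2, a transcriptional coactivator and phosphatase, had 163 of 176 tags deleted (92.6%, 87.7 to 96.0) in intron 10 of 15. Dlgap1, a scaffold of the postsynaptic density, had 56 of 56 (100%, 93.6 to 100), and the next base had 55 of 56. Nfib, a transcription factor, had 54 of 54 (100%, 93.4 to 100), inside the extent of the gene but beyond its basic transcripts. Syt1, the calcium sensor of synaptic vesicles, had 55 of 90 (61.1%, 50.3 to 71.2). None of these 4 genes was listed with an RPKM. Rbks, which phosphorylates ribose, had 43 of 43 at an RPKM of 17.6.

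Others had a lower share, over 1 kb from any exon of their gene. In Smchd1 85 of 802 tags were deleted (10.6%, 8.55 to 12.9), 1685 nt before an exon and 142 nt after the end of Gm4707, a short gene annotated on the same strand inside that intron. RefSeq placed that base in the extents of both Gm4707 and Smchd1. Vti1a, a SNARE of vesicle transport, had 83 of 298 (27.9%, 22.8 to 33.3) at an RPKM of 32.0. Camk1d, a calcium-dependent kinase, had 50 of 189 (26.5%, 20.3 to 33.3) 17220 nt from an exon at an RPKM of 2.24. Mageb16 had 83 of 483 (17.2%, 13.9 to 20.9) under a peak of 732 and was not listed with an RPKM. Across all intronic sites, 72 (13.8%) lay within 5 kb after the end of another same-strand gene, of which 29 followed a processed pseudogene (an intronless copy of an mRNA) and 27 a protein-coding gene. The median share was 75% at those 72 sites and 88.9% at the other 449. Tags from such copies and their parent genes may align to either place.

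In the full GENCODE set, which adds transcripts of lower support, 115 of the 521 sites (22.1%, 18.6 to 25.9) fell in an exon. Retained-intron transcripts covered 61, protein-coding transcripts 29 and nonsense-mediated decay transcripts 21, with some sites in several. These 115 sites resembled the exonic ones more than the rest did: median k was 41 against 8 at the other 406, the median share was 24.0% against 100%, and every tag was deleted at 15.7% against 51.5%. The groups were not matched for coverage, so their shares cannot be told apart from it. A smaller set of 52 sites lay inside the annotated extent of a gene but beyond every basic transcript, with a median k of 56 and a median share of 23.9%. The remaining 469 lay between exons of a basic transcript. Those introns had a median length of 7032 nt, and the sites lay at a median of 34.0% of the way along.

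The distances of intronic sites to the nearest exon of their gene fell into separate ranges. Of the 521 sites, 101 (19.4%, 16.1 to 23.0) lay within 10 nt of an exon: 19 at 1 nt, 36 at 2 nt, 22 at 3 nt, 12 at 4 nt, and 12 at 5 to 8 nt, with none at 9 or 10 nt. From 11 to 100 nt there were only 25 more. The first 10 nt beside exons made up 4.66 Mb, or 0.400% of the intronic bases on a strand, and held 21.7 sites per Mb, against 0.361 per Mb in the rest of the introns. Exonic bases within 10 nt of an intron held 9.85 sites per Mb (46 sites), and the other exonic bases 97.7. The table was made after the values had been seen.

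**Figure D3:**
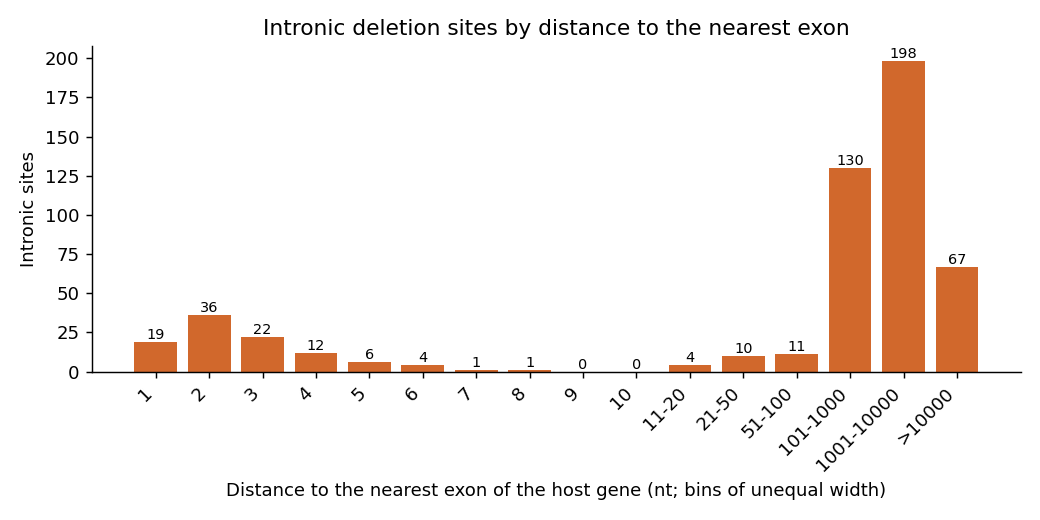
Number of intronic deletion sites (vertical axis) by distance to the nearest exon of the host gene in nt (horizontal axis, bins of unequal width). The sites within 8 nt of an exon (101 in all) are set apart from those beyond 100 nt, with 25 from 11 to 100 nt.

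Of the 101 sites, 77 lay just after an exon, at the 5′ splice site side, 21 just before one, at the 3′ splice site side, and 3 at an exon edge with no basic intron beside it. The 77 had a median k of 7 and a median share of 100%, with every tag deleted at 40 of them (51.9%). The 21 had a median k of 9 and a median share of 78.0%, with every tag deleted at 5. The sites were spread over 63 genes and 66 runs. Counted once per site, the host genes were well expressed, with a median RPKM of 81.9 and an RPKM of at least 1 at 99 of 101 sites (98.0%). The 420 sites farther in had a median of 12.5, with 62.6% at an RPKM of at least 1. A same-strand peak covered 91.1% of the 101 sites and 74.3% of the others. Among sites of k of at least 50, 6.25% lay within 10 nt of an exon. The alignments of single tags across the splice junctions were not used here, so their part in these sites was not tested.

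The boundary sites with the most deletions and a basic intron beside them, taken after the values were seen, were all in genes with an RPKM of at least 1. Eif5, the GTPase-activating factor of translation initiation, had 59 of 60 tags deleted (98.3%, 91.1 to 99.96) 4 nt before its last exon. Atp6v0b, a subunit of the vacuolar proton pump, had 32 of 41 (78.0%, 62.4 to 89.4) 5 nt before its last exon, under a peak of height 1572. Ube2m, which transfers the ubiquitin-like NEDD8, had 25 of 26 (96.2%, 80.4 to 99.9) 3 nt after an exon. At its neighbour base 2 nt after that exon the same count, 25, was deleted of 158 tags. Rint1, which acts in vesicle tethering, had 24 of 34 (70.6%, 52.5 to 84.9) and Ddx39, an RNA helicase, 21 of 31 (67.7%, 48.6 to 83.3), both 1 nt before their last exon. Tmem131 had 18 of 31 (58.1%, 39.1 to 75.5) 3 nt after an exon, and Eftud2 13 of 16 (81.25%, 54.4 to 96.0) 1 nt after one. Tram1, part of the protein translocation channel, had 12 of 21 deleted 2 nt after an exon, at the T in capitals in its stretch above. It is named for that stretch and not for its rank. The Ube2m and Tram1 bases also fall in exons of transcripts outside the basic set.

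The mRNA level of the host gene differed between sites of full and of part deletion, which also differed in coverage. Median k was 4 at fully deleted intronic sites and 36 at partly deleted ones. The gene groups below were not matched for coverage, so it cannot be told apart from the deleted share. The 183 genes with at least 1 partly deleted intronic site had a median RPKM of 27.1 (quartiles 5.04 and 69.6), and 16.9% were not listed. The 170 genes whose intronic sites all had every tag deleted had a median RPKM of 0.567 (0 and 19.5, with unlisted genes at 0), and 35.3% were not listed. Genes with an exonic site had a median of 39.2, with 2.67% not listed, and all listed genes had 6.62. Of the 106 sites more than 5 kb from both exons, every tag was deleted at 62.3%, with a median k of 6. RPKM is scaled by gene length and refers to polyadenylated RNA, so it does not measure unspliced RNA.

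**Figure D4:**
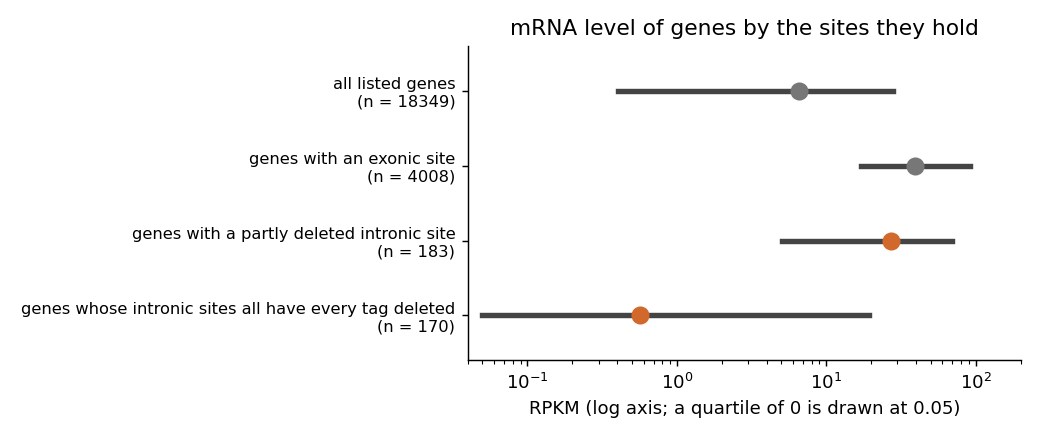
RPKM (horizontal log axis; points are medians, bars the quartiles over genes, a quartile of 0 drawn at 0.05) of genes grouped by the sites they hold. Genes whose intronic sites all have every tag deleted have a median of 0.567, and those with a partly deleted intronic site 27.1, beside 39.2 for genes with an exonic site.

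Sites outside genes were ordered by the distance to the nearest gene end upstream on the same strand. Of the 1357 sites, 470 (34.6%, 32.1 to 37.2) lay within 5 kb after such an end and 887 farther. The near sites had a median k of 40, a median share of 36.7% and every tag deleted at 21.3%. The far sites had a median k of 6, a median share of 100% and every tag deleted at 60.8%. The share with every tag deleted climbed with distance, from 14% at 1 to 200 nt and 17.1% at 201 to 1000 nt to 37.6%, 48.7%, 55.7% and 70.6% in the 4 farther ranges, the last over 100000 nt. Median k fell over the same ranges, from 48 and 42.5 to 18, 10.5, 7 and 5. Coverage was not matched, so distance and coverage cannot be told apart here. The stretches within 5 kb make up 223 Mb, 5.51% of the bases outside genes on a strand, and held 2.11 sites per Mb. The rest held 0.232 per Mb, introns 0.446 and exons 93.8.

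**Figure D5:**
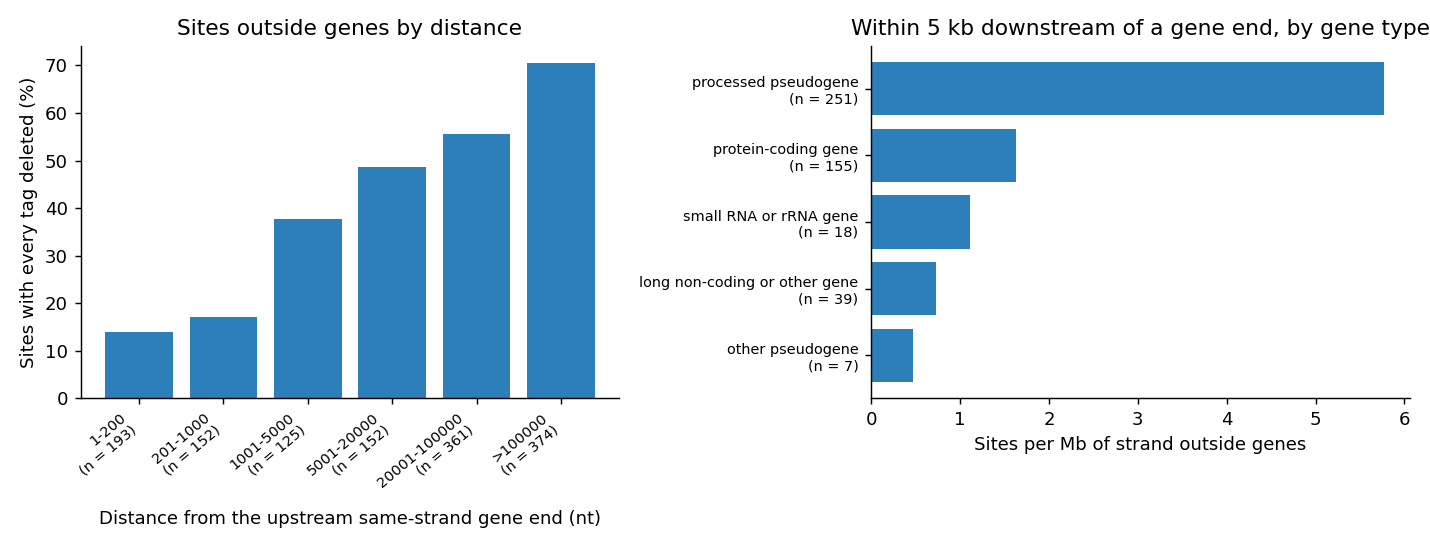
Left, percent of sites outside genes with every tag deleted (vertical axis) by distance from the upstream same-strand gene end in nt, from 14% at 1 to 200 nt to 70.6% beyond 100000 nt. Median coverage falls over the same ranges, from 48 to 5 tags, and was not matched. Right, sites per Mb of strand outside genes within 5 kb of a gene end, by type of that gene, with processed pseudogenes at 5.77 and protein-coding genes at 1.62.

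Processed pseudogenes stood before more of the near sites than any other gene type. They preceded 251 of the 470 (53.4%, 48.8 to 58.0), at 137 genes, with a median distance of 201 nt, and the density after them was 5.77 sites per Mb. The median share was 50% and the median k 30. Of the 137 pseudogenes, 59 had an RPKM of at least 1. RefSeq drew 110 of the 251 sites (43.8%) inside its longer extent of the same pseudogene, with a median share of 36.7% there and 71.4% at the other sites. Gm5560 had 8 sites in 1 run at k of 17 to 30, 260 nt or more past its end. Nudc-ps1 had 7 sites in 1 run, each covered by 12 tags. Gm6407 had 158 of 844 tags deleted at 142 nt (18.7%, 16.1 to 21.5), Gm16581 93 of 222 at 436 nt (41.9%, 35.3 to 48.7), and Gm15361 49 of 50 (98.0%, 89.4 to 99.9). Reads from a pseudogene and from the parent mRNA cannot be told apart where their sequences match, so these positions are uncertain.

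Protein-coding genes preceded 155 near sites (33.0%, 28.7 to 37.4) at 97 genes, with a median distance of 936 nt, 1.62 sites per Mb, a median k of 40 and a median share of 29.6%. Of the 97 genes, 88 had an RPKM of at least 1, and the median was 27. In RefSeq, 71 of the 155 sites (45.8%, 37.8 to 54.0) lay inside the extent of the same gene. Those 71 had a median k of 91, a median share of 15.0% and every tag deleted at 4.23%, and the other 84 had a median k of 18, a median share of 62.3% and every tag deleted at 38.1%. Ano6, a membrane lipid scramblase, had 178 of 722 tags deleted 631 nt past its GENCODE end (24.7%, 21.5 to 28.0), under a peak of height 745. Cmip, a signalling adaptor, had 6 sites at k of 219 to 467 from 1993 nt, with shares of 2.52% to 13.2%. RefSeq placed both genes' sites inside the gene. Vim, which encodes the intermediate filament vimentin, had 7 sites in 1 run 4575 nt or more past its end at k of 15 to 19, with shares of 63.2% to 100%, and RefSeq placed no gene there.

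One place outside genes carried more deletions than any other. It lies on the plus strand of chromosome 17 between 39846476 and 39846919, 135 nt or more past the end of the long non-coding gene Gm26917, and RefSeq names it Rn18s-rs5, a sequence related to 18S rRNA. The 26 sites there held 2360 deletions, 12.3% of all deletions outside genes, and 37.3% of the covering tags. Coverage ran from 330 to 3983 tags, the deleted share from 0.540% to 12.5%, and no peak of the list covered it. The most deleted base had 449 of 3603 tags (12.5%, 11.4 to 13.6) and is the T in capitals in the Gm26917 stretch above. GENCODE annotates an rRNA gene, CT010467.1, on the opposite strand, so the sites count as antisense to it. That label rests on the annotated strand alone, and which strand the rRNA itself comes from was not tested. Without this place, the median share of the other 1331 sites was 91.7% and the pooled share, all deletions over all tags, was 16.9% in place of 12.1%. Another place, 115 nt or more past the end of Snord104, a guide RNA for rRNA modification, had 6 sites at k of 2527 to 3409. At its most deleted base 180 of 3383 tags were deleted (5.32%, 4.59 to 6.13), and RefSeq placed that base in Gm36220.

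Farther than 5 kb, single bases with nearly every tag deleted were common, but the most deleted base was not one of them. It lay 9352 nt after Kri1, a gene of ribosome assembly: 264 of 754 tags (35.0%, 31.6 to 38.5), in a run of 8 sites at k of 689 to 754 with no peak and no RefSeq gene. A base 137089 nt after Gm47872 had 163 of 167 (97.6%, 94.0 to 99.3), one 24455 nt after Gm30808 had 75 of 81 (92.6%, 84.6 to 97.2), and one 45628 nt after Ankrd13a had 60 of 63 (95.2%, 86.7 to 99.0). In the immunoglobulin heavy chain region, 12368 nt after Ighv1-55, all 55 of 55 tags were deleted (100%, 93.5 to 100). A base 28847 nt after Pitx3 had 51 of 52 (98.1%, 89.7 to 99.95), as had its neighbour. None of these lay in a peak. A base after Sapcd1 had 61 of 389 (15.7%, 12.2 to 19.7) under a peak of height 395, and RefSeq placed it in D17H6S56E-5.

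For sites outside genes, the share opposite a gene was close to what the length of the annotation gives. Of the 1357 sites outside genes on their own strand, 423 (31.2%, 28.7 to 33.7) lay opposite a gene, and 28.9% of the bases outside genes do. The 423 include the 26 sites of the rRNA place, and without that place the share was 29.8%. By the basic transcripts, 24 lay opposite an exon (1.77%, 1.14 to 2.62) and 399 opposite an intron. In the full set, 62 sites had the 41 bases around them wholly inside an exon of the opposite strand, the 26 rRNA sites included. The share of bases outside genes that lie opposite an exon was not measured. Of the intronic sites, 48 (9.21%, 6.87 to 12.0) also lay opposite another gene, 9 of them opposite an exon. The share of intronic bases opposite a gene was not measured either. Of the 24 sites opposite an exon, 11 lay within 5 kb after a gene on their own strand, with a median share of 33.3%, and 13 farther, with a median of 100%. Several of the most deleted were at genes that end facing each other. Past the end of Ppp2cb, a catalytic subunit of protein phosphatase PP2A, 12 of 210 tags were deleted (5.71%, 2.99 to 9.77), 334 nt downstream and opposite an exon of Ubxn8. RefSeq includes that base in Ppp2cb, a peak of height 229 covers it, and AATAAA follows it. Past Pdzd8, which tethers membranes, 41 of 195 were deleted (21%, 15.5 to 27.4), opposite an exon of Slc18a2. Past Ddx19a, an mRNA export helicase, 15 of 38 were deleted (39.5%, 24.0 to 56.6) opposite St3gal2, and past St3gal2, a sialyltransferase, 9 of 95 (9.47%, 4.42 to 17.2) opposite Ddx19a. Opposite exons of Sox1ot and 4921517D22Rik, 15 of 21 tags (71.4%, 47.8 to 88.7) and 9 of 20 (45%, 23.1 to 68.5) were deleted. A pair of bases with 96 deletions each (of 1803 and of 1032 tags), the most deleted of their runs, lay opposite an intron of Serinc3, more than 23 kb from the end of Ttpal.

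The authors' peaks covered the 2 classes unequally. A same-strand peak lay over 404 intronic sites (77.5%, 73.7 to 81.1), 81 sites outside genes (5.97%, 4.77 to 7.36) and 9652 exonic sites (96.2%, 95.9 to 96.6). In introns it covered 92.9% of partly deleted sites and 57.7% of those with every tag deleted, at median heights of 74 and 6. Outside genes it covered 80 of 718 partly deleted sites and 1 of 639 fully deleted ones. By distance, 25.4% of sites within 200 nt of a gene end lay in a peak and 1.01% of those beyond 5 kb. The peak list was read as made on annotated genes from a term in its name, which no other source states, so a site without a peak is not a site without tags.

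Sequence could be read for the sites that an annotated transcript or promoter covers: 114 intronic sites (21.9%), 65 sites outside genes (4.79%) and 9557 exonic sites. The intronic ones are mostly those in exons of the full set, and 26 of the 65 are from the rRNA place, so neither stands for its class. Among the 114, the deleted base was T at 51.8%, A at 37.7%, and C or G at 5.26% each, beside 48.5%, 44.4%, 3.49% and 3.62% in exons. AATAAA, on the strand of the site, stood in the 41 bases around 28.9% of them, against 29.9% in exons. Of the intronic sites that could be read, it stood around 30 of 91 partly deleted ones (33.0%) and 3 of 23 fully deleted ones (13.0%). Those 23 are 10.1% of the fully deleted intronic sites. It stood around 2 of the 18 at exon boundaries. ATATAA stood around 5.26% in introns and 13.0% in exons. Among the 39 sites outside genes and away from the rRNA place, A was deleted at 43.6%, T at 28.2%, C at 15.4% and G at 12.8%, with AATAAA around 12.8%. At the 26 rRNA sites C and G were deleted at 34.6% each, and A made up 6.92% of the 10 bases downstream, against 42.1% in exons. A match is a description of the letters alone.

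The lists around the poly(A) tail and of the erythroid lineage are set beside all expressed genes. Of all 12331 annotated genes with an RPKM of at least 1, 1.82% held an intronic site and 1.23% stood before a site within 5 kb. Of 20 cleavage and polyadenylation genes, 1 (5%) held an intronic site and 1 stood before a site: Papola had 3 intronic sites and Pabpn1, the nuclear poly(A) binding protein, 1 site 707 nt downstream (6 deletions). Of 41 genes of tail binding, deadenylation and decay, 2.44% held an intronic site and 4.88% stood before one downstream. Larp1, which binds the mRNA cap, had 1 intronic site (6 deletions, k of 108) and Gspt1, a translation release factor, 1 downstream site (25 deletions, k of 82). Pabpn1 is counted in this list too. Of 91 ribosomal protein genes none had an intronic site, and Rpl6 (3 sites from 4288 nt) and Rpl36a (1 site at 55 nt) had sites downstream. Of 35 translation factors only Eif5 had one, at the boundary described above.

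Of 36 erythroid genes, 2 (5.56%) held an intronic site. Tfrc, the transferrin receptor, had 16 of 53 tags deleted in 1 intronic site (30.2%) just before the AATAAA shown above, in an exon of a retained-intron transcript. Alad, a heme synthesis enzyme, had 4 of 4 tags deleted in 1 intronic site. Among 36 hnRNP and SR protein genes, Hnrnpl had 2 intronic sites (8 deletions) and Srsf2 2 sites downstream (6 deletions). Of 22 small RNA hosts and nuclear non-coding RNAs, Gas5 had 2 intronic sites (13 deletions) and Snhg15 had 1 (6 deletions). The 37 mitochondrially encoded genes had no site of any class, exonic ones included, and none had an RPKM of at least 1, so they say nothing of these classes. These counts of 0 to 2 genes a list are small, and the lists were chosen with earlier results of these data known.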

How the data were processed

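The deposited files were 1 list of deletion sites and 1 peak list for the 3 CLIP-seq samples together, and 1 table of RPKM for the 2 mRNA-seq samples together. Cutadapt 1.4.2, Novoalign 3.02.02, TopHat2 2.0.12, HTSeq 0.6.0 and mm10 are named in the submitters' processing notes, and no source used here gives the thresholds of the lists. The counts of the deposited deletion list are the authors' tags with a deletion (m) beside covering tags (k). The peak score, deposited by the authors as a whole number, was read as a height in tags. RPKM values were computed by the authors, and 18059 of 18349 listed genes (98.4%) matched the annotation. A gene not listed was set to 0.

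Sites were placed with Python 3.11.15, numpy 2.4.6, pandas 2.3.3 and scipy 1.17.1, on GENCODE M21 (1-based). Gene extents are those of the gene records. The placement was tested on simulated data. RefSeq extents carry no strand. Sequences were read from GENCODE transcripts and RefSeq promoters (250 bases before to 50 after a start), with opposite-strand ones reverse-complemented. Sites named are the 15 intronic runs and 6 runs outside genes per strand or distance class with the most deletions, the 5 genes and loci with the most sites, the 5 sites with the largest share at k of at least 50, and up to 4 genes a list; boundary sites were added afterwards. The members and lists were chosen with earlier results of these data known. One gene's downstream sites are not reported here.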

Additional observations from a re-analysis of the deposited data

How the results depend on the processing

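Of the alternatives tried, 34 values stayed within the main value's interval (or within 1.5 times for a count) and 41 moved, none in a test. With k of at least 50 there were 112 intronic sites (1.31% of all) with a median share of 11.1% and a median k of 135.5, and 362 outside genes (4.23%) with 12.5% and 133.5. With m of at least 10 there were 179 (2.32%), with 39.4% and 46, and 530 (6.86%), with 29.7% and 64, of which 28.7% were antisense to a gene and 52.5% within 5 kb of a gene end. With runs counted once by their most deleted site the median shares were 93.3% and 100%, median k outside genes was 8, the share within 5 kb 29.7%, and every tag was deleted at 49.1% and 54.4%. At k of at least 10, every tag was deleted at 9.32% and 11.2%. The full transcript set gave 3.41% intronic, transcript spans in place of gene extents 3.94%, and ignoring strand 911 intronic sites (7.65%) and 7.84% outside genes. Leaving out sites in a RefSeq extent, run only for sites outside genes, left 702 (5.90%). Within 1 kb of a gene end lay 25.4% and within 10 kb 39.6%. Peaks of at least 10 tags covered 59.5% of intronic sites. The median RPKM of hosts was 25.4 over listed genes and 32.1 over those of at least 1. Without sites within 10 nt of an exon the median distance to an exon was 1687.5 nt. Such sites were 6.25% at k of at least 50 and 14.5% at m of at least 10. The transcript spans, the shares with every tag deleted and the boundary settings were chosen after seeing the data. The cause of these shifts was not tested, beyond the fewer sites that each limit leaves.

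No paired analysis was possible because the replicate numbers belong to different assays and the authors pooled the samples of each. For the same reason no replicate was left out in turn. Depth limits the low end: at k of 3 to 9 a full deletion rests on as few as 3 tags.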
